A study of Mus musculus with 32 samples.

Results

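Iron storage and transport genes were followed here as a set of 9 genes, Fth1, Ftl1, Trf, Tfrc, Slc40a1, Slc11a2, Hmox1, Ireb2 and Aco1, which were picked by gene symbol and make up 9 of the 33000 genes of the count table. All 9 had a row. The libraries were 3'Pool-seq libraries, in which an indexed oligo-dT primer lets samples be pooled right after reverse transcription and only the 3' ends of transcripts are read. The RNA came from frontal cortex of C57BL/6 mice aged 3 months, either WT or homozygous GFAP-IL6, a line in which the Gfap promoter drives an interleukin 6 transgene, so that the cytokine is made in astrocytes. Each genotype was profiled with 50, 10, 1 or 0.5 ng of total RNA in the reaction, with 4 libraries for each of the 8 combinations, 32 in all. The comparisons ask whether the genes differ between genotypes at each input, and whether their measured levels change as the input is lowered.

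Iron reaches cells bound to transferrin (Trf), which is taken up by the transferrin receptor (Tfrc). Slc11a2 (DMT1) carries the iron out of the endosome, ferritin, a shell of heavy (Fth1) and light (Ftl1) chains, stores what is not used, and ferroportin (Slc40a1) is the known exporter of iron from cells. Haem oxygenase 1 (Hmox1) frees iron from haem, and the iron regulatory proteins, encoded by Aco1 and Ireb2, bind hairpins called iron-responsive elements in the mRNAs of several of these genes when iron is short. In brain, oligodendrocytes are known as the main source of Trf mRNA and are rich in ferritin, and brain endothelium is known for a high level of the transferrin receptor.

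The hairpins are shown because they set apart the genes of the set that share a known regulator. Transcripts of GENCODE vM21 on GRCm38 were searched, in the sense direction, for a C, 5 bases, CAGTGN, and 5 bases pairing with the 5 before the loop, with G-T pairs allowed and at most 1 mismatch. Lines give the 17 bases 5′ to 3′, with the loop in capitals.
Fth1, 5' UTR, chr19:9982738-9982754, plus strand: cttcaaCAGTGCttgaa
Ftl1, 5' UTR, chr7:45459785-45459801, minus strand: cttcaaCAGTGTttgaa
Slc40a1, 5' UTR, chr1:45925471-45925487, minus strand: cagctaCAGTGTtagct
Tfrc, 3' UTR, chr16:32631225-32631241, plus strand: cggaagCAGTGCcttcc
Tfrc, 3' UTR, chr16:32631604-32631620, plus strand: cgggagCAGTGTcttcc
Tfrc, 3' UTR, chr16:32631669-32631685, plus strand: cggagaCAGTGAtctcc
Tfrc, 3' UTR, chr16:32631716-32631732, plus strand: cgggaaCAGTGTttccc
Slc11a2, 3' UTR, chr15:100395159-100395175, minus strand: cagagcCAGTGTgtttc
The hairpins of both ferritin chains differed at 1 of 17 bases, C12T from Fth1 to Ftl1, counted from 1 at the 5′ end of the hairpin. Tfrc had 4 matches, all in the 3' UTR, and the match in Slc11a2 was the only one of the 8 with a mismatch in the stem, 1 of 5 pairs. No match was found in Trf, Hmox1, Ireb2 or Aco1. Of 21901 protein-coding genes, 4.9% held a match with up to 1 mismatch in a UTR and 0.731% held a perfect one there. A match is a description of the letters and was not tested for binding.

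Library totals ran from 261378 to 9840302 counts, with medians of 3603629, 4463016, 1457725 and 1428120 at 50, 10, 1 and 0.5 ng. A level of 3 counts, taken as the floor, came to between 0.305 and 11.5 CPM, the counts brought to a common library total, and covers counting error only, since the libraries carried no molecular identifiers. Il6 had 4 to 22 counts in the GFAP-IL6 libraries and at most 1 in the WT libraries at 50 ng. At 10 ng it had 2, 0, 3 and 0 counts in WT and 41, 2, 27 and 20 in GFAP-IL6. These counts, not scaled to library totals, overlapped. At 1 ng, WT replicate 3 had 13 counts and GFAP-IL6 replicates 2 and 3 had 0. Il6 was at 0 in all 8 libraries at 0.5 ng. Gfap went with the labels at 1 ng, with 19, 3, 28 and 20 counts in WT and 58, 20, 110 and 33 in GFAP-IL6. At 0.5 ng it had 37, 1, 24 and 24 counts in WT and 15, 18, 110 and 170 in GFAP-IL6, so replicate 1 went the other way. WT replicate 3 carried 3389.5, 3022.0, 3105.0 and 3144.3 CPM of choroid plexus markers (Ttr, Folr1, Kl, Kcne2 and Clic6 summed) from 50 to 0.5 ng, against at most 339.6 CPM in every other library. GFAP-IL6 replicate 4 at 50 ng also stood apart: without it the common coefficient of variation between replicates over all genes fell from 0.214 to 0.130. Neurons and oligodendrocytes were well represented, with summed markers of 5268.8 to 7554.7 CPM and 3546.2 to 7988.0 CPM over the 32 libraries.

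Fth1 had by far the highest measured level of the 9 genes. Only reads with a single alignment were counted, so reads that also fit a processed pseudogene of a ferritin chain are missing from these levels. At 50 ng, the mean level over both genotypes was 7426 ± 1892 CPM for Fth1 (SD, n = 8), 149.9 ± 36.2 for Ftl1, 90.5 ± 35.8 for Trf, 59.0 ± 19.0 for Tfrc, 31.7 ± 11.8 for Ireb2, 15.9 ± 3.45 for Slc11a2, 15.0 ± 4.07 for Aco1, 5.46 ± 1.92 for Slc40a1 and 0.497 ± 0.541 for Hmox1. Every library of Fth1 lay above every library of Ftl1, every library of Ireb2 above every one of Slc11a2, and every library of Slc40a1 above every one of Hmox1. The ranges of the other neighbours overlapped, and Slc11a2 was higher than Aco1 in only 3 of 8 libraries. Scaled to CPM per kilobase of gene length, Fth1 stood at 8575, Ftl1 at 155, Trf at 32.9, Tfrc at 11.4 and Ireb2 at 5.45, and the only change in the order was that Aco1 (3.91) moved ahead of Slc11a2 (2.78). Since 3'Pool-seq reads only the ends of transcripts, CPM is the scale used below.

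At 1 and 0.5 ng, Ftl1 took the 4th place in CPM, after Trf and Tfrc, while it stayed 2nd per kilobase. Fth1 and Ftl1 were above the floor in all 32 libraries, as was Trf. Slc40a1 passed the floor in 7, 7, 7 and 3 of 8 libraries from 50 to 0.5 ng, and Hmox1 in 1, 3, 2 and 3 of 8.

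**Figure D1:**
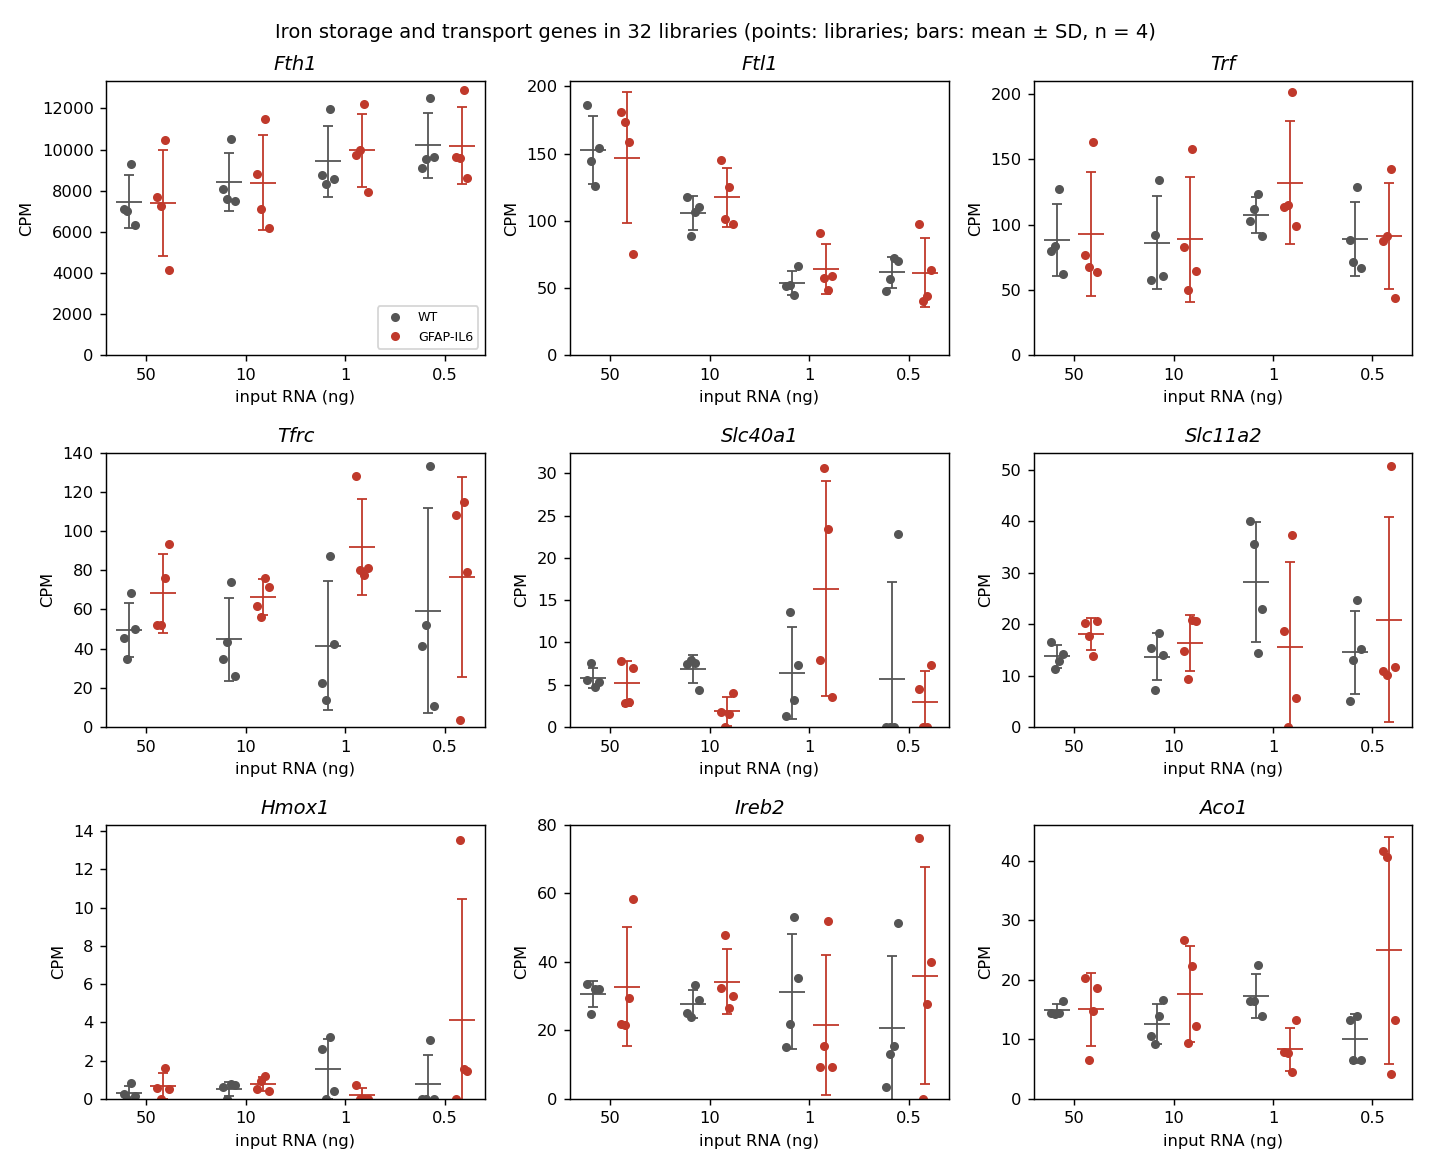
Levels in CPM (vertical axes, each from 0) of the 9 genes at 50, 10, 1 and 0.5 ng of input RNA, with a point for each library, WT in grey and GFAP-IL6 in red, and bars for the mean ± SD of 4 libraries, cut off at 0. The points of Fth1 lie higher and those of Ftl1 lower at the lower inputs, while the points of Slc40a1, Slc11a2, Ireb2 and Aco1 spread out at 1 and 0.5 ng.

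Of the 9 genes, 8 passed the filter on low counts at 50, 10 and 1 ng, all but Hmox1, and 7 passed it at 0.5 ng, where Slc40a1 failed it too. None of them differed between genotypes at any input by edgeR's quasi-likelihood test with a Benjamini-Hochberg adjusted p-value under 0.05. At an unadjusted p under 0.05 there were 0 of 8 at 50 ng, 2 of 8 (Tfrc and Slc40a1) at 10 ng, 1 of 8 (Tfrc) at 1 ng and 0 of 7 at 0.5 ng, and DESeq2 also called 0 at every input. Over all genes tested, 0.28%, 0.332%, 0.0323% and 0.0117% were called from 50 down to 0.5 ng, so that a count of 0 among 8 genes is near the background at each input.

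**Figure D2:**
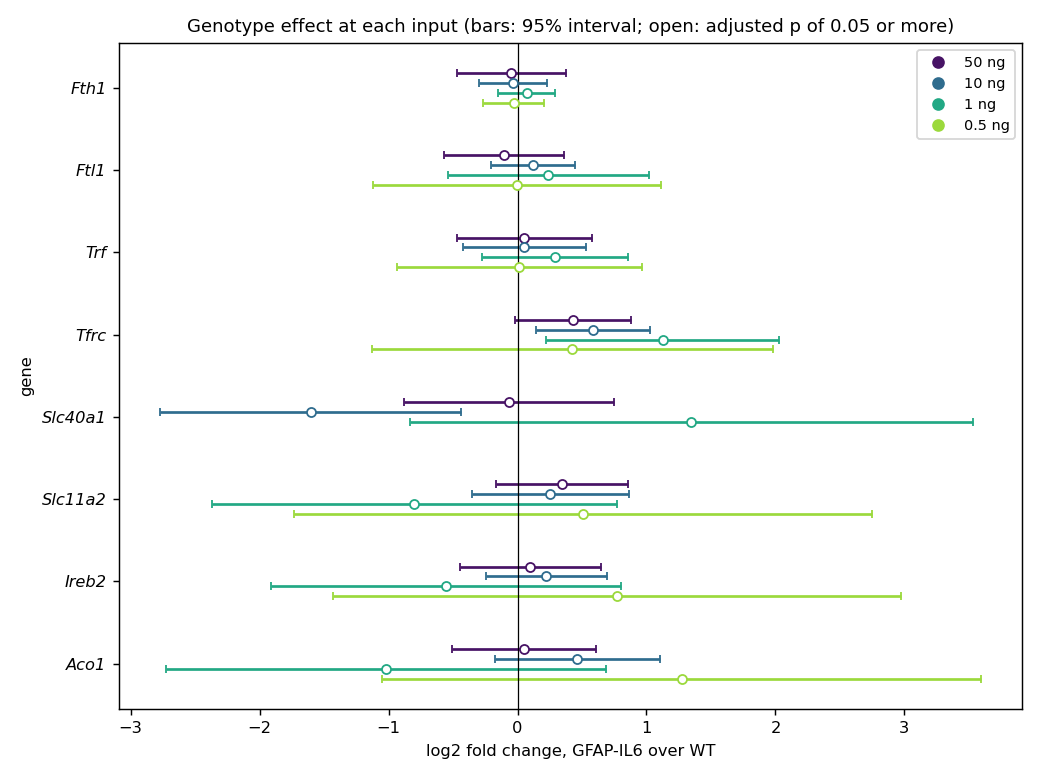
Log2 fold change of GFAP-IL6 over WT (horizontal axis) for the 8 genes that could be tested, with a point and 95% interval for each input, all open because no adjusted p was under 0.05. The Fth1 points sit between -0.05 and 0.07, and the intervals of Slc11a2, Ireb2 and Aco1 widen at 1 and 0.5 ng.

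For Fth1, the heavy chain, which carries the ferroxidase activity of ferritin, the 50 ng libraries held 7102.7, 7031.6, 9320.5 and 6355.5 CPM in WT replicates 1 to 4 and 7716.1, 7262.8, 10464.2 and 4152.7 CPM in GFAP-IL6 replicates 1 to 4. The groups overlapped, with GFAP-IL6 holding both the highest and the lowest library. The log2 fold change was -0.05 at 50 ng (95% interval -0.47 to 0.37), and -0.04, 0.07 and -0.03 at the lower inputs, with intervals of -0.30 to 0.23, -0.15 to 0.29 and -0.26 to 0.20. The intervals at 10, 1 and 0.5 ng end within 0.30 of 0 on the log2 scale in either direction. At 50 ng the value was 0.17 without GFAP-IL6 replicate 4.

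For Ftl1, the light chain, which helps the iron core to form, the levels at 50 ng were 186.2, 144.4, 125.8 and 154.3 CPM in WT and 181.3, 173.5, 158.4 and 75.1 CPM in GFAP-IL6. The lowest of the 8 was again GFAP-IL6 replicate 4. The log2 fold change was -0.11 at 50 ng (SE 0.223), 0.12 at 10 ng (SE 0.159), 0.24 at 1 ng (SE 0.376) and 0.00 at 0.5 ng (SE 0.533), with adjusted p-values from edgeR of 0.930, 0.885 and 0.997 for the first 3. Without GFAP-IL6 replicate 4 the 50 ng value was 0.14.

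Trf, the transferrin mRNA, was high in replicate 3 of both genotypes. At 50 ng the WT libraries held 79.98, 83.49, 126.9 and 62.48 CPM and the GFAP-IL6 libraries 76.76, 67.17, 163.0 and 63.98 CPM. Replicate 3 was the highest library of its genotype at 10, 1 and 0.5 ng as well, where it held 133.9, 123.7 and 128.9 CPM in WT and 157.7, 201.8 and 142.6 CPM in GFAP-IL6. Between genotypes, the log2 fold change of Trf was 0.05, 0.05, 0.29 and 0.01 from 50 to 0.5 ng, with SE of 0.252, 0.235, 0.273 and 0.454. WT replicate 3 is the library with the high choroid plexus markers, a tissue known to express Trf, whereas GFAP-IL6 replicate 3 held only 141.8 CPM of those markers at 50 ng. Oligodendrocyte markers in GFAP-IL6 replicate 3 were the highest of its genotype at every input (7413.8 CPM for 50 ng). WT replicate 3 (7161.7 CPM for 50 ng) came just after WT replicate 2 (7165.5 CPM) and was highest only at 1 ng. Both libraries numbered 3 had the lowest mitochondrial share of their genotype at every input (for 50 ng, WT 12.39% and GFAP-IL6 12.68%). The part of these traits in the level of Trf was not tested. Without WT replicate 3 the log2 fold change at 50 ng was 0.27, and without GFAP-IL6 replicate 3 it was -0.34.

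Tfrc, the transferrin receptor, had higher means in GFAP-IL6 at every input, but did not pass the test. At 50 ng the WT libraries held 45.66, 34.6, 68.17 and 49.88 CPM and the GFAP-IL6 libraries 51.85, 52.24, 75.85 and 93.55 CPM. At 10 ng the values were 34.76, 43.59, 74.27 and 26.14 CPM in WT and 61.77, 56.36, 76.15 and 71.54 CPM in GFAP-IL6. The groups overlapped at both inputs because WT replicate 3 was high, although the GFAP-IL6 library was above the WT library of the same number in 4 of 4 cases at each.

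In the test, Tfrc had a log2 fold change of 0.43 at 50 ng (SE 0.217, edgeR adjusted p = 0.835) and 0.58 at 10 ng (SE 0.219, edgeR adjusted p = 0.497). The value at 50 ng was 0.25 without GFAP-IL6 replicate 4, and that at 10 ng was 0.92 without WT replicate 3 (edgeR adjusted p = 0.0639) and 0.38 without WT replicate 4. At 1 ng the WT libraries held 22.26, 13.65, 87.54 and 42.51 CPM and the GFAP-IL6 libraries 128.3, 80.34, 77.48 and 81.06 CPM, a log2 fold change of 1.12 (SE 0.437, edgeR adjusted p = 0.997). It was 1.80 without replicate 3 of both genotypes, the number at which Il6, but not Gfap, goes against the labels. At 0.5 ng it was 0.43 (SE 0.743), and the GFAP-IL6 library was the higher of the same-numbered libraries in 2 of 4 cases. When counts of the 50 and 10 ng libraries of the same genotype and number were summed, an alternative chosen after seeing the data, the log2 fold change was 0.48 (95% interval 0.11 to 0.86), with an edgeR adjusted p of 0.461. Summed endothelial markers (Cldn5, Pecam1, Flt1, Ly6c1 and Slco1a4), all 5 of them detected, were also higher in GFAP-IL6 than in WT, at 163.1 to 195.9 against 100.8 to 127.7 CPM at 50 ng and 172.5 to 196.1 against 103.4 to 115.8 CPM at 10 ng; their part in the Tfrc values was not tested. In bulk tissue, more cells of a type and more RNA per cell cannot be told apart.

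Slc11a2 carries iron from the endosome into the cytosol. At 50 ng it stood at 16.6, 11.28, 12.8 and 14.19 CPM in WT and 20.28, 17.73, 13.83 and 20.61 CPM in GFAP-IL6, so that 3 of 4 GFAP-IL6 libraries were above all WT libraries. Its log2 fold change, GFAP-IL6 over WT, was 0.35 (SE 0.247, edgeR adjusted p = 0.837), and it was 0.25, -0.80 and 0.51 at 10, 1 and 0.5 ng, with SE of 0.301, 0.756 and 1.07. The value at 1 ng was -1.82 without replicate 3 of both genotypes.

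Slc40a1, the exporter, had the largest log2 fold change of the 8 tested members at 10 ng. There the WT libraries held 36, 12, 30 and 37 counts (7.404, 7.925, 7.578 and 4.396 CPM) and the GFAP-IL6 libraries 7, 0, 8 and 40 counts (1.723, 0, 1.587 and 4.065 CPM). All 4 GFAP-IL6 libraries were below all WT libraries, although the libraries of replicate 4 differed by little. GFAP-IL6 over WT, the log2 fold change was -1.60 (SE 0.575, edgeR adjusted p = 0.467). At 50 ng, by contrast, the levels were 5.535, 7.522, 4.731 and 5.306 CPM in WT and 7.82, 2.799, 2.997 and 6.99 CPM in GFAP-IL6, which overlapped, with a log2 fold change of -0.06 (SE 0.392). At 1 ng it was 1.35 (SE 1.05), with the sign turned. The difference in the genotype effect between 10 and 50 ng, and between 1 and 50 ng, was not called for Slc40a1 or any other member in the fit of all 32 libraries. That fit shares its spread over the inputs and could hardly call such a difference at 10 ng.

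Among the 8 tested genes, Slc40a1 at 10 ng and Aco1 at 1 ng were the only cases in which the genotypes did not overlap in CPM. Of all genes tested, 3.33%, 4.1%, 3.07% and 2.81% did not overlap, from 50 down to 0.5 ng.

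Aco1 encodes cytosolic aconitase, which acts as an iron regulatory protein when it lacks its iron-sulphur cluster. At 1 ng its levels were 16.37, 16.38, 22.49 and 13.9 CPM in WT and 7.926, 7.652, 4.459 and 13.21 CPM in GFAP-IL6, from 34 counts at most in WT and 37 in GFAP-IL6. Aco1 thus had a log2 fold change of -1.02 (SE 0.822, edgeR adjusted p = 0.997), or -0.65 without replicate 3 of both genotypes. The direction was the opposite at the other inputs, at 0.05, 0.46 and 1.27 for 50, 10 and 0.5 ng, with SE of 0.271, 0.315 and 1.11.

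Ireb2 encodes the iron regulatory protein that is degraded when iron is plentiful. At 50 ng it stood at 33.48, 24.82, 32 and 31.97 CPM in WT and 21.72, 21.46, 29.51 and 58.43 CPM in GFAP-IL6. GFAP-IL6 replicate 4 held the highest level and the other 3 lay within or below the WT range. Its log2 fold change was 0.10 (SE 0.264) and turned to -0.35 (SE 0.179, edgeR adjusted p = 0.878) without that library. At 10, 1 and 0.5 ng it was 0.22, -0.55 and 0.77, with SE of 0.232, 0.655 and 1.05.

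Hmox1, the inducible haem oxygenase, was at the limit of detection and did not pass the filter on low counts. It had 1, 0, 3 and 1 counts in WT and 2, 0, 7 and 3 in GFAP-IL6 at 50 ng, and 3, 0, 3 and 6 against 2, 1, 6 and 4 at 10 ng. At 1 ng there were 4, 0, 4 and 1 counts in WT and 1, 0, 0 and 0 in GFAP-IL6, and at 0.5 ng 0, 0, 4 and 0 against 0, 4, 3 and 4. Without the filter, its log2 fold change was 1.17 at 50 ng (SE 1.04) and 0.31 at 10 ng (SE 1.43), with edgeR adjusted p-values of 0.771, 0.966, 0.816 and 0.920 from 50 down to 0.5 ng. No genotype difference was detectable at these depths.

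Markers of several cell types moved with genotype, as measured facts beside the values above. Microglial and macrophage markers, 9 genes summed, were at 457.7 to 512.0 CPM in WT and 543.0 to 993.5 CPM in GFAP-IL6 at 50 ng, and at 408.9 to 506.2 against 643.4 to 1006.3 CPM at 10 ng. Astrocyte markers, 6 genes with Gfap among them, were at 1413.0 to 1507.1 against 1551.6 to 3335.6 CPM at 50 ng. The 3335.6 CPM was that of GFAP-IL6 replicate 4, while GFAP-IL6 replicates 1 to 3 held 1551.6, 1747.4 and 1628.6 CPM. Oligodendrocyte markers, 6 genes, overlapped at 5254.4 to 7165.5 against 3546.2 to 7413.8 CPM. Perivascular macrophage markers were near 0, at 6.60 CPM or less in both genotypes at 50 and 10 ng. At these inputs none of the markers was at 0 in all libraries of a group. The part of these cells in the levels of the iron genes was not tested.

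The ferritin chains moved in opposite directions as the input was lowered. Ftl1 fell at 1 and 0.5 ng against 50 ng, and Fth1 rose at 0.5 ng, in the fit of all 32 libraries averaged over the genotypes. That fit shares its spread over the inputs, a common coefficient of variation of 0.53 over all genes. Fitted alone, 50, 10, 1 and 0.5 ng gave 0.21, 0.24, 0.52 and 0.77. Its SE and adjusted p may thus be too large at 10 ng and too small at 0.5 ng. The fit of 50 and 0.5 ng alone gave edgeR adjusted p-values of 0.0214 for Fth1 and 0.00547 for Ftl1. Input amount and sequencing pool cannot be told apart from the labels. At 10 ng no member was called, nor any gene of the whole table (0%), although 65 of 12164 genes had an unadjusted p under 0.05, and DESeq2 called 4 genes and limma voom 32, none of them a member. At 1 ng 1 of 8 members was called, against 0.822% of all genes (0.477% higher and 0.345% lower). At 0.5 ng it was 2 of 8, against 6.72% of all genes (1.9% higher and 4.83% lower). With limma voom neither chain was called at 0.5 ng (adjusted p = 0.140 for Fth1 and 0.0812 for Ftl1), while Fth1 was called higher at 1 ng as well under 7 alternatives, among them DESeq2 (adjusted p = 0.0269), and not under 9 others.

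For Ftl1 the lowest, median and highest of 8 libraries were 75.09, 156.3 and 186.2 CPM at 50 ng, 88.5, 108.5 and 144.9 at 10 ng, 44.98, 54.62 and 90.79 at 1 ng, and 40.67, 59.95 and 97.4 at 0.5 ng. At 1 and 0.5 ng every library was below the 50 ng library of the same genotype and number, 8 of 8, and at 10 ng 7 of 8 were. The ranges at 1 and 0.5 ng overlapped that at 50 ng only through the low GFAP-IL6 replicate 4 at 50 ng. Against 50 ng, the log2 fold change was -0.41 at 10 ng (SE 0.197, not called), -1.29 at 1 ng (SE 0.206, edgeR adjusted p = 0.000139) and -1.19 at 0.5 ng (SE 0.204, adjusted p = 0.000260). At 1 ng only 582 of 12164 genes had a lower log2 fold change than Ftl1, and at 0.5 ng 1499 had.

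For Fth1 the lowest, median and highest were 4152.7, 7182.8 and 10464.2 CPM at 50 ng, 6175.1, 7841.4 and 11495.2 at 10 ng, 7926.4, 9245.1 and 12225.8 at 1 ng, and 8600.2, 9598.7 and 12898.4 at 0.5 ng. It was above the same-numbered 50 ng library in 7, 8 and 8 of 8 cases at 10, 1 and 0.5 ng. The log2 fold change was 0.20 at 10 ng (SE 0.114, not called), 0.43 at 1 ng (SE 0.115, edgeR adjusted p = 0.0582) and 0.52 at 0.5 ng (SE 0.115, adjusted p = 0.00327). At 1 ng 1430 of 12164 genes had a higher log2 fold change than Fth1, and at 0.5 ng 1553 had. Replicate 3 was the highest library of its genotype at every input.

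The count ratio of Fth1 to Ftl1 brings both changes together. Its lowest, median and highest values were 38.1, 45.6 and 74.1 at 50 ng, 60.7, 69.5 and 99.0 at 10 ng, 107, 165 and 267 at 1 ng, and 99.0, 171 and 291 at 0.5 ng. All ratios at 1 and 0.5 ng lay above all ratios at 50 ng. The genotypes overlapped at every input, with means of 50.5 ± 16.3 in WT and 51.4 ± 11.5 in GFAP-IL6 at 50 ng (SD, n = 4) and of 168 ± 22.7 and 190 ± 88.4 at 0.5 ng. A ratio shows unequal change and does not say how much of it is due to either gene. Both chains have processed pseudogenes in the mouse genome and only uniquely aligned reads were counted. Reads that fit gene and copy alike were thus left out, and their share for each chain is uncertain. Both genes also carry the 5' hairpin shown above, whose part in these values was not tested.

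**Figure D3:**
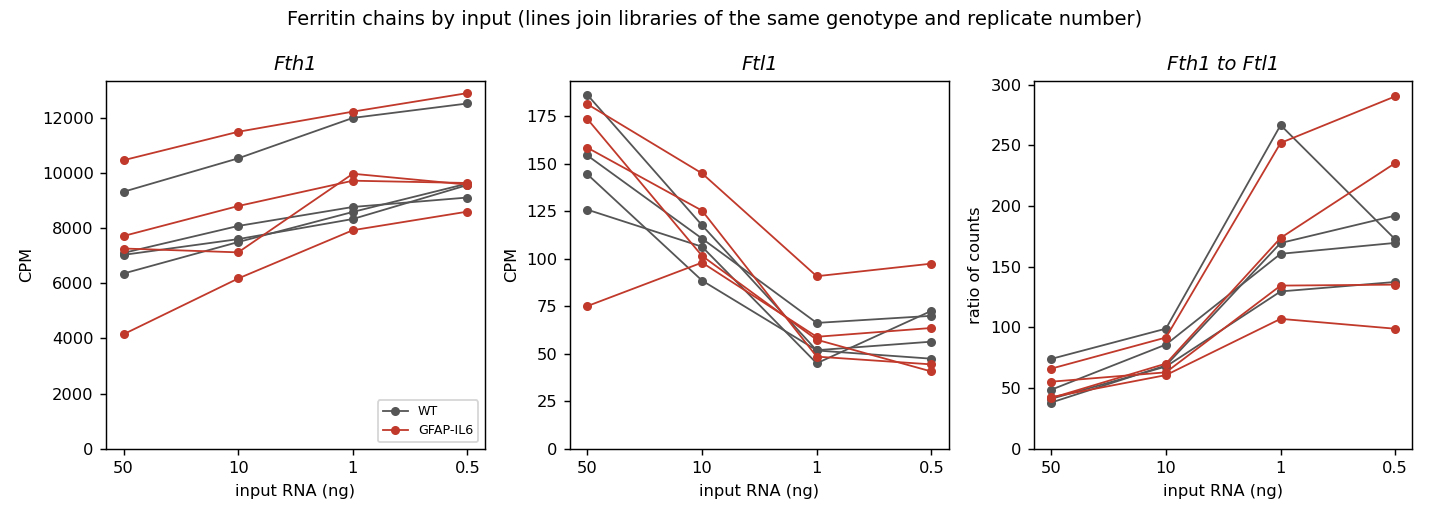
Fth1 and Ftl1 in CPM and their count ratio (vertical axes, from 0) against the input in ng (horizontal axis, in the order 50, 10, 1 and 0.5), with lines joining libraries of the same genotype and replicate number, WT in grey and GFAP-IL6 in red. Fth1 is above its 50 ng value in 8 of 8 lines at 0.5 ng and Ftl1 below it in 8 of 8, and the ratio goes from a median of 45.6 at 50 ng to 171 at 0.5 ng.

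No other member was called against 50 ng at any input by edgeR. Trf, at 0.45 on the log2 scale for 1 ng (SE 0.238, edgeR adjusted p = 0.674), was above its 50 ng library in 7 of 8 cases there, but its value was 0.05 at 0.5 ng. Tfrc stood at -0.09, 0.15 and 0.28 for 10, 1 and 0.5 ng, Slc11a2 at -0.06, 0.49 and 0.21, Slc40a1 at -0.54, 0.83 and -0.13, Ireb2 at -0.04, -0.25 and -0.06, and Aco1 at 0.00, -0.27 and 0.11. Their SE ran from 0.348 for Tfrc at 10 ng to 0.787 for Slc40a1 at 1 ng. Red cell markers (Hba-a1, Hba-a2, Hbb-bs, Hbb-bt and Alas2 summed), whose cells hold most of the iron of the body, went from 265.4 to 509.2 CPM at 50 ng to 591.4 to 1021.5 CPM at 1 ng and 480.1 to 660.4 CPM at 0.5 ng; their part in the values of the iron genes was not tested.

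**Figure D4:**
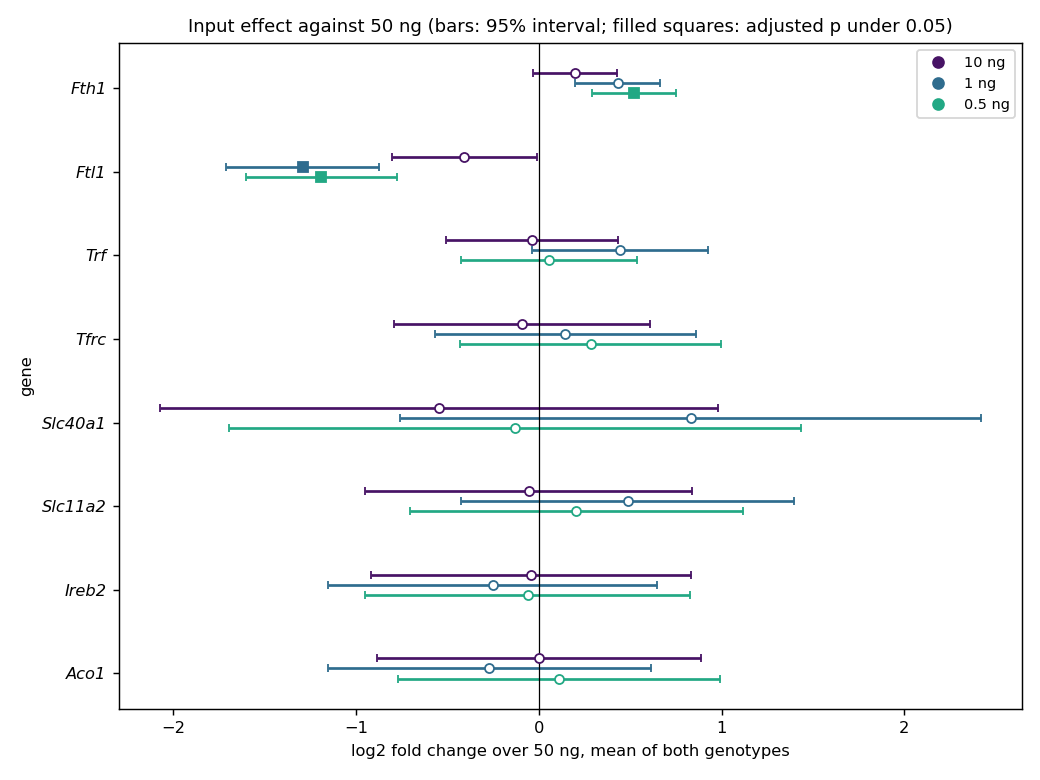
Log2 fold change against 50 ng (horizontal axis), averaged over the genotypes, for the 8 genes tested at 10, 1 and 0.5 ng, with 95% intervals and filled squares where the edgeR adjusted p was under 0.05. The filled squares are Ftl1 at -1.29 and -1.19 and Fth1 at 0.52.

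The genotype effect on the members was not called as different between inputs. The interaction of genotype and input was called for 0 of 8 members at 10, 1 and 0.5 ng against 50 ng by edgeR's quasi-likelihood test, against 0%, 0% and 0.197% of all genes, and for 0 by DESeq2 and by limma voom as well. DESeq2 called 0, 5 and 189 of all genes, and voom 0 at each input. Over all genes, 1 of 12164 had an unadjusted p under 0.05 for 10 ng, 333 for 1 ng and 1307 for 0.5 ng. The edgeR fit shares its spread over the inputs, a common coefficient of variation of 0.53, against 0.21 and 0.24 within 50 and 10 ng. It could thus hardly call a change at 10 ng, and its count of 0 there says little. The fit of 50 and 10 ng alone also called 0 genes, with 174 of 12599 at an unadjusted p under 0.05.

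The spread between libraries was wider at low inputs for several of the less abundant members. The coefficient of variation of 4 libraries stayed between 0.153 and 0.349 for Fth1 at all inputs. For Tfrc it went from 0.282 in WT and 0.295 in GFAP-IL6 at 50 ng to 0.882 and 0.668 at 0.5 ng. For Ireb2 in WT it went from 0.127 to 1.01, and for Aco1 in WT from 0.0695 to 0.410. At 0.5 ng the Ireb2 libraries held 4, 6, 20 and 135 counts in WT and 119, 0, 53 and 109 in GFAP-IL6. Slc40a1 was seen there in 1 of 4 WT libraries, with 60 counts, and in 2 of 4 GFAP-IL6 libraries, with 7 and 20.

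Beyond the 9 members, a list of 77 genes of iron and haem handling was followed, of which 74 had a row. By genotype, 0 of 53 tested at 50 ng, 0 of 54 at 10 ng, 0 of 47 at 1 ng and 0 of 42 at 0.5 ng were called by edgeR, with 1, 4, 1 and 1 at an unadjusted p under 0.05. Cp, the ferroxidase ceruloplasmin, had the highest log2 fold change at 10 ng, with 5.142, 3.963, 4.547 and 6.296 CPM in WT and 12.55, 26.3, 8.131 and 8.943 CPM in GFAP-IL6. All 4 GFAP-IL6 libraries were above all WT libraries, with a log2 fold change of 1.31 (SE 0.420, edgeR adjusted p = 0.336). Hfe, which binds the transferrin receptor, stood at 0.83, and Nfe2l2, a regulator of antioxidant genes, at 0.69. The lowest values at 10 ng were those of Tfr2, the second transferrin receptor, at -0.71, Slc46a1, a carrier of folate and haem, at -0.69, and Alad, an enzyme of haem synthesis, at -0.61 (SE 0.223, edgeR adjusted p = 0.473).

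At 50 ng the highest values were 0.67 for the metal importer Slc39a14, 0.61 for the mitochondrial iron importer Slc25a37 and 0.57 for Id1, a target of bone morphogenetic protein signalling. Id1 stood at 49.26, 30.09, 39.24 and 35.55 CPM in WT and 61.11, 83.03, 66.63 and 32.98 CPM in GFAP-IL6 (SE 0.237, edgeR adjusted p = 0.834). Among the lowest were Cpox, of haem synthesis, at -0.34 and Iscu, of iron-sulphur cluster assembly, at -0.29. Of the 20 genes of mitochondrial iron, clusters and haem synthesis tested, 15 had a negative log2 fold change at 50 ng and 17 at 10 ng, with medians of -0.19 and -0.12 beside -0.0034 and 0.0034 over all genes, and none of the 20 was called. At 1 and 0.5 ng 13 and 11 of 19 tested were negative, with none called. The list on hepcidin and its regulation had medians of 0.11 and 0.28 at 50 and 10 ng, and none of its 8 tested genes was called. Its medians were 0.0081 and 0.061 at 1 and 0.5 ng.

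By input, Glrx5, a mitochondrial glutaredoxin of iron-sulphur cluster assembly, rose at 0.5 ng against 50 ng (log2 fold change 0.48, SE 0.142, edgeR adjusted p = 0.0302). Abcg2, a transporter of drugs and porphyrins, was called lower at 0.5 ng (edgeR adjusted p = 9.55e-05) and was also the only gene of the list with a called interaction there (adjusted p = 0.00139), which voom called for no gene. It had 0 counts in all 4 WT libraries at 0.5 ng and 28, 9, 129 and 16 counts in the GFAP-IL6 libraries, while at 1 ng both genotypes held similar means, 30.95 and 30.38 CPM. No other gene of the list was called at 10, 1 or 0.5 ng by edgeR. At 0.5 ng this makes 2 of 53 tested, 1 in each direction, against 6.72% of all genes, so that the count is near the background.

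The genes whose level followed each member most closely were sought over the 16 libraries at 50 and 10 ng, by Pearson's r of log2(CPM + 1) among 6597 genes, for the 5 members with a mean above 20 CPM. Fth1 was most like Xbp1 (r = 0.952), Crip2 (0.944) and Pfn1 (0.942), and Ftl1 most like H2afz (0.906), Naa20 (0.897) and Lysmd2 (0.884). Trf was most like Tubb3 (0.877), Hiat1 (0.857) and Slc22a17 (0.856), Tfrc most like Neurl4 (0.887), Aatk (0.862) and Mmd (0.860), and Ireb2 most like Setd7 (0.893), Chd3 (0.873) and Kndc1 (0.863). No member was among the closest 3 of another. The highest correlation between members was that of Fth1 and Trf, at 0.743, and that of Fth1 and Ftl1 was 0.334. The 16 libraries share replicate numbers and differ in depth, so these values describe the libraries and carry no test.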

How the data were processed

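The deposited table holds raw counts per gene made by the authors, who demultiplexed the pools, trimmed poly(A), mapped them to mm10 using STAR 2.4, and assigned reads with a single alignment to GENCODE genes by featureCounts. Whether counting used strand, and how reads in overlapping genes were handled, is not given in the sources used here. In GENCODE vM21, Ftl1 and Trf overlap a gene on the same strand (Gm22133 and Gm20425), whatever the strand setting. Ftl1 and Slc11a2 overlap a gene on the other strand (Gm10252 and Gm5475). Reads in the overlaps may have been left out or shared, so the levels of Ftl1, Trf and Slc11a2 are less certain. The number of animals behind the libraries was not given by the labels, and p-values measure the spread between libraries. Members and gene lists were chosen with earlier results of these data known, and the genes named were all members, the 3 highest and 3 lowest of the list at 50 and 10 ng (1 of these is not reported here), any list gene called, and the 3 most alike genes.

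CPM was the count brought to a common library total, and log2(CPM + 1) was used for correlations. Differences were tested with edgeR 4.0.16 (R 4.3.3, TMM, filterByExpr, quasi-likelihood), 4 against 4 libraries at each input without covariates, and in a single fit of all 32 libraries for input and interaction. The single fit shares its estimate of the spread over all inputs, although the spread differs between them. A call was a Benjamini-Hochberg adjusted p under 0.05 over all genes tested, and SE came from the F statistic. Alternatives were DESeq2 1.42.0, its size factors, limma 3.58.1 voom, no filter, thinning to 261378 counts, a replicate block, a call that also needs an absolute log2 fold change above 1, and leaving out each replicate. Replicate numbers come from the sample titles: between genotypes, deviations from the group mean correlated within a number at 0.112 to 0.382 at 50 ng and 0.108 to 0.313 at 10 ng (4 of 4 pairs over 0.1), and at no more than 0.0647 at 1 and 0.5 ng. No pair of replicates looked like the same library (smallest chi-square per degree of freedom 2.37 in 48 pairs). Hairpins and gene positions came from GENCODE vM21 (GRCm38, the same build as mm10).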

Additional observations from a re-analysis of the deposited data

Results flagged for a closer look

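Groups of 4 libraries were checked where some library had more than 3 counts. In 12 of these 70, a value lay far from the other 3 (gap over range above Dixon's 95% critical value). The rate of 1 in 20 behind that value assumes independent normal values. Groups with most counts at 0, and libraries shared by several genes, do not meet this. The count of 12 is thus a description and not a test. Fth1 was far above the rest in WT replicate 3 at 1 ng (11997.6 CPM) and 0.5 ng (12521.7 CPM), and Trf in GFAP-IL6 replicate 3 at 50 ng (163.0 CPM) and 1 ng (201.8 CPM). Of the GFAP-IL6 replicates, Tfrc was far above in replicate 1 at 1 ng (128.3 CPM), Ireb2 in replicate 3 at 1 ng (51.84 CPM) and Slc11a2 in replicate 3 at 0.5 ng (50.68 CPM). Slc40a1 in WT replicate 4 was far below at 10 ng (4.396 CPM) and far above at 0.5 ng (22.81 CPM, from 60 counts against 0 in the other 3). Hmox1 stood out in WT replicate 3 (3.087 CPM) and in GFAP-IL6 replicate 2 (13.56 CPM) at 0.5 ng, each from 4 counts, and Aco1 in WT replicate 4 at 50 ng (16.45 CPM).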

How the results depend on the processing

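The count of members called by genotype was 0 at every input, and that of members with an interaction was 0 at every input, under every alternative run. Titles do not say that the same number in both genotypes marks a pair, and only the correlated deviations at 50 and 10 ng hint at it. The replicate block on these numbers changed no call by genotype. With it, Tfrc at 10 ng went to 0.67 on the log2 scale with an edgeR adjusted p of 0.0816. The block raised the calls over all genes at 10 ng from 40 to 77. Over all genes, the 100 calls at 1 ng became 208 with DESeq2, 191 with voom and 166 with the block, and the 818 at 0.5 ng became 229 after thinning, 291 in the fit of the 2 inputs, 373 with voom, 1229 with DESeq2 and 1319 without the filter. The count of members called at 1 ng against 50 ng was 1 (Ftl1) and became 2, with Fth1, under the DESeq2 test, DESeq2 size factors, no filter, thinning and the replicate block (edgeR adjusted p = 5.01e-07 for Fth1 with the block). Across inputs, libraries sharing genotype and number had deviations that correlated above 0.1 in 7, 5 and 3 of 8 pairs for 10, 1 and 0.5 ng against 50 ng, short of all pairs, while 7, 8 and 7 of 8 libraries correlated best with their own number, a hint from the data that the labels do not give. Leaving out 1 replicate gave 1 to 2, and it was 2 without GFAP-IL6 replicate 3 or 4. At 0.5 ng the count of 2 became 0 under limma voom (adjusted p = 0.140 for Fth1 and 0.0812 for Ftl1; log2 fold changes 0.63 and -1.09) and 1 (Ftl1) when an absolute log2 fold change above 1 was also required, a rule applied to the inputs after seeing the data, and stayed at 2 under the other alternatives run. At 10 ng no member was called under any alternative run, and over all genes the count of 0 became 4 with DESeq2, 32 with voom and 6 with the block. The cause of these changes was not tested. The median log2 fold change of all genes at 0.5 ng was -0.09, but -0.48 under voom, -0.38 without the filter and -0.25 with the block; less that median, Fth1 was 0.61 as reported and 1.11, 0.86 and 0.80 in those, and Ftl1 -1.10, -0.61, -0.85 and -0.95. The direction of both chains held in all of them.

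Some values that were not called changed sign, with no call gained; most were small, but Slc11a2 for genotype at 0.5 ng was 0.51 as reported, Tfrc for input at 0.5 ng 0.28 and Ireb2 for input at 1 ng -0.25. Under DESeq2 size factors the log2 fold changes were Ftl1 0.0074 (genotype, 0.5 ng), Aco1 -0.0025 (input, 10 ng). Under the DESeq2 test the log2 fold changes were Ftl1 0.014 (genotype, 0.5 ng), Aco1 -0.0022 (input, 10 ng). Under summing the counts of the 50 and 10 ng libraries the log2 fold changes were Ftl1 0.0021 (genotype, 50 ng). Under limma voom the log2 fold changes were Slc11a2 0.034 (input, 10 ng), Aco1 -0.051 (input, 10 ng), Tfrc -0.19 (input, 0.5 ng), Aco1 -0.33 (input, 0.5 ng). Under the replicate block the log2 fold changes were Trf -0.0074 (genotype, 50 ng), Trf -0.061 (genotype, 0.5 ng), Slc11a2 -0.019 (input, 0.5 ng). Under the single fit of all 32 libraries the log2 fold changes were Ftl1 0.0077 (genotype, 0.5 ng). Under thinning the log2 fold changes were Fth1 0.020 (genotype, 50 ng), Trf -0.19 (genotype, 50 ng), Fth1 0.016 (genotype, 10 ng), Ftl1 -0.12 (genotype, 10 ng), Fth1 0.015 (genotype, 0.5 ng), Ftl1 0.40 (genotype, 0.5 ng), Trf 0.077 (input, 10 ng), Trf -0.014 (input, 0.5 ng), Ireb2 0.072 (input, 0.5 ng). Leaving out 1 replicate gave ranges of -0.22 to 0.17 for Fth1, -0.25 to 0.14 for Ftl1, -0.34 to 0.27 for Trf, -0.31 to 0.20 for Slc40a1, -0.35 to 0.26 for Ireb2, -0.11 to 0.21 for Aco1 (genotype, 50 ng). For genotype at 10 ng the ranges were -0.19 to 0.084 for Fth1, -0.018 to 0.20 for Ftl1, -0.34 to 0.32 for Trf. For genotype at 1 ng the ranges were -0.0099 to 0.16 for Fth1, -0.0048 to 0.38 for Ftl1. For genotype at 0.5 ng the ranges were -0.15 to 0.041 for Fth1, -0.34 to 0.15 for Ftl1, -0.28 to 0.24 for Trf, -0.39 to 0.83 for Slc11a2. For input at 10 ng the ranges were -0.066 to 0.022 for Trf, -0.16 to 0.011 for Tfrc, -0.17 to 0.030 for Slc11a2, -0.21 to 0.22 for Ireb2, -0.066 to 0.14 for Aco1. For input at 1 ng the ranges were -0.079 to 0.27 for Tfrc, -0.79 to 0.11 for Ireb2. For input at 0.5 ng the ranges were -0.021 to 0.095 for Trf, -0.098 to 0.46 for Tfrc, -3.74 to 0.084 for Slc40a1, -0.32 to 0.38 for Slc11a2, -0.63 to 0.14 for Ireb2, -0.16 to 0.28 for Aco1. 
Slc40a1 at 0.5 ng went to -3.74 without WT replicate 4, the library that held 60 of its 87 counts there. Depth limits the low members: at 0.5 ng a level of 3 counts was as much as 10.2 CPM. Of the values with no test, 14 of the levels moved by more than the spread between replicates and 130 did not, 14 places in the order of levels moved and 22 did not, and 16 counts of libraries above the floor moved and 56 did not.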

Other observations

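Abcg2 was at 0 counts in all 4 WT libraries at 0.5 ng, where 3 counts correspond to between 1.14 and 6.50 CPM, while the WT libraries at 1 ng held 65, 15, 38 and 24 counts and at 50 ng 120, 28, 104 and 192. The GFAP-IL6 libraries at 0.5 ng spread from 5.877 to 67.39 CPM. Hbb-bs, a globin of red cells, rose at 1 ng against 50 ng (log2 fold change 1.14, SE 0.128, edgeR adjusted p = 1.84e-07) and at 0.5 ng (0.77, SE 0.127, edgeR adjusted p = 0.000171).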
